A study of Homo sapiens with 6 samples.

Results

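The kinesins, the motor proteins that walk along microtubules or take them apart, were followed through the conversion of human embryonic stem cells into neurons. The members were the protein-coding genes whose symbol begins with KIF and a digit, or with KIFC, together with the light chain genes KLC1 to KLC4. This rule found 46 genes, 42 heavy chains and 4 light chains, of 19855 protein-coding genes among 61853 entries. The rule itself used no measured value. The genes were read by role, as 13 mitotic kinesins, 17 transport kinesins, 6 ciliary or centriolar kinesins, 6 other heavy chains and 4 light chains. Both the members and the role lists were chosen with earlier results of these data known. KIFBP, a kinesin binding protein whose older symbol would have matched, and CENPE, a kinetochore kinesin with another kind of name, were kept with the partners of kinesins.

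The study measured total RNA of H9, an established human embryonic stem cell line, before differentiation (day 0) and after 30 days of differentiation into arcuate neurons (day 30), with 3 libraries on each day. Its stated interest was the expression of pre-rRNA processing factors. All libraries came from the H9 line, and no genotype or allele differed between them. The day 30 cells had been patterned in KSR medium and then N2 medium with SHH, purmorphamine, SB431542 and LDN-193189. They were then grown with B-27 and DAPT, replated, and kept with B-27 and BDNF. Total counts were 7178453 to 8794008 per library on day 0 and 5013643 to 12924842 on day 30. Nothing in the labels says that replicates were separate cultures, so p-values measure only the spread between these samples.

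Kinesins hydrolyse ATP to move on microtubules. One set works in the spindle of dividing cells, where its members separate the poles, position chromosomes, trim microtubule ends and build the midzone at which the daughter cells part. Another set carries vesicles, organelles and RNA, and neurons depend on it to supply axons and dendrites far from the cell body. The conventional transport kinesin pairs KIF5 heavy chains with light chains that bind cargo.

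Summed markers of pluripotent, neuronal and arcuate cells followed the labels. The summed level of 8 pluripotency markers was 5497 to 6219 CPM (read counts scaled by library size) on day 0 and 21.65 to 32.37 CPM on day 30, and that of 8 neuronal markers was 171.2 to 201.5 and 5598 to 7024 CPM. Arcuate and hypothalamic markers, 8 genes, summed to 2.205 to 2.792 and 2936 to 4704 CPM. Most of the day 30 sum was POMC (1108 to 1763 CPM) and SST (1523 to 2642 CPM), and RAX was too low on both days to be tested. Neural progenitor markers, 8 genes, summed to 1427 to 2296 CPM on day 0 and 959.7 to 1162 CPM on day 30. Most of the day 30 sum was VIM (531 to 722 CPM) and NES (308 to 351 CPM). Both were also high on day 0, at 683 to 1397 and 505 to 662 CPM. HES5 was at 0 in every library and PAX6 was too low to be tested. Of the 6 tested, 3 fell, 1 rose and 2 did not pass. One day 30 library stood apart from the others of its day: 8 mesenchymal and neural crest markers summed to 171.5, 630.1 and 4333 CPM in day 30 replicates 1, 2 and 3, against 227.3 to 328.3 CPM on day 0. FOXD3 of that list was at 0 on day 30. In bulk RNA, fewer cells of a type and less RNA per cell cannot be told apart.

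Of the 46 kinesin genes, 39 had enough counts to be tested, 15 fell, 19 rose and 5 did not pass (edgeR quasi-likelihood test, Benjamini-Hochberg adjusted p under 0.05 over all genes tested). The days differed widely in all their RNA. Of all 18040 genes tested, 76.6% passed, 36.8% as lower and 39.8% as higher on day 30, so that most genes of any list pass. CPM ranges of the days did not overlap for 34 of the 39 tested kinesins, beside 79.5% of all tested genes. Direction differed between the role lists, which were chosen with earlier results of these data known. All 11 tested mitotic kinesins fell, with a median log2 change of -5.31. In contrast, 12 of 17 transport kinesins and 3 of 3 tested light chains rose, with medians of 1.87 and 1.39. KIF2C was listed as mitotic, but KIF2A of the same family was listed with the other heavy chains and rose, by 0.52. The uniform fall of the mitotic list holds only for that placement. The median was 0.14 over all tested kinesins and 0.08 over all genes tested.

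**Figure D1:**
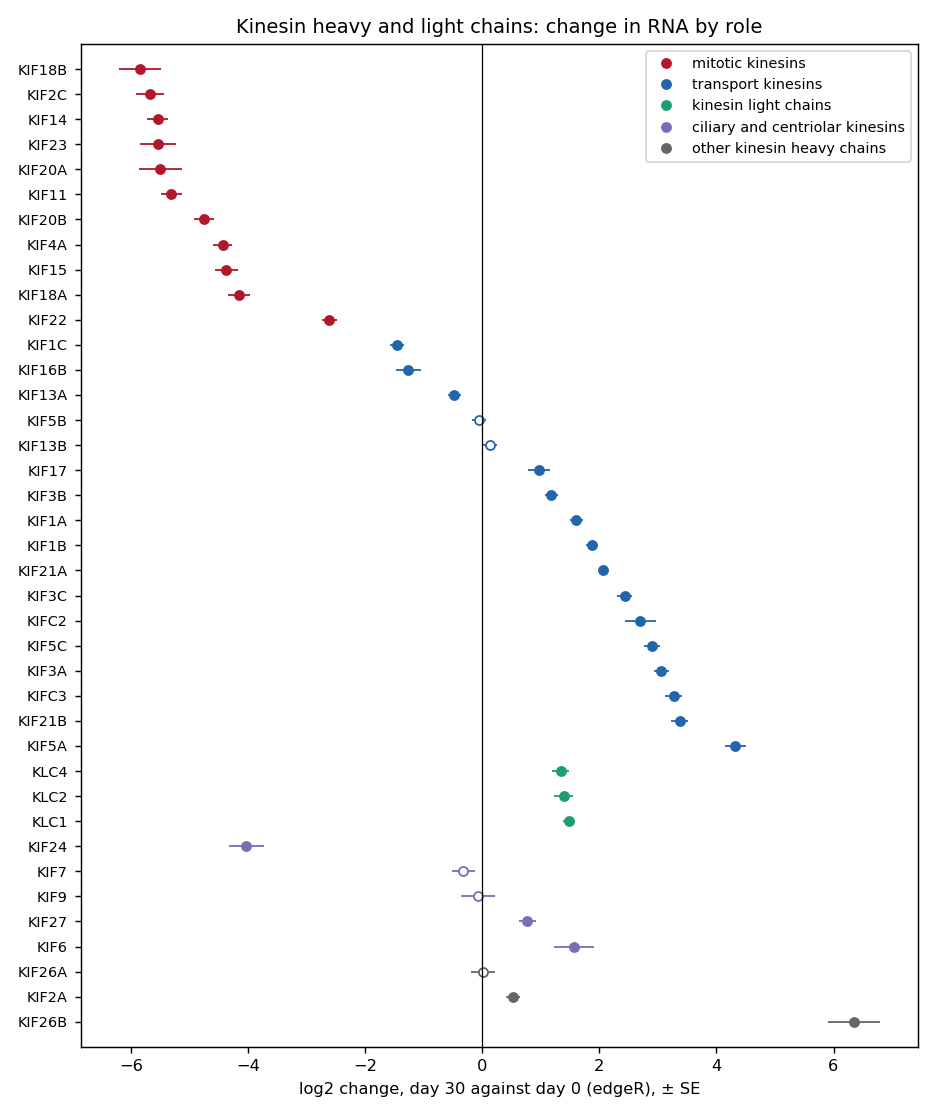
Log2 change of each of the 39 tested kinesins on day 30 against day 0, by role. Points are edgeR estimates, bars are the approximate standard error, and open points did not pass at an adjusted p of 0.05. Mitotic kinesins lie between -5.85 and -2.61, and transport kinesins between -1.45 and 4.32. The point for KIF26B rests on 3 day 0 counts.

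The mitotic kinesins formed the steepest fall. KIF18B, which shortens astral microtubules at their plus ends, was at 52.5, 49.9 and 44.6 CPM on day 0 and 0.307, 0.601 and 2.25 CPM on day 30. The fall was by 5.85 ± 0.36 on the log2 scale (SE, edgeR adjusted p = 9.56e-08). KIF2C, a kinetochore protein that takes microtubule ends apart, was at 94.7, 95.5 and 86.2 CPM and then at 0.922, 1.95 and 2.82 CPM. It fell by 5.68 ± 0.24 (adjusted p = 6.83e-09). In both genes every day 30 library lay far below every day 0 library. The day 30 libraries differed among themselves by more than the day 0 libraries in relative terms. Those day 30 values rest on 3 to 12 counts per library for KIF18B and 9 to 26 for KIF2C. The KIF18B gene lies at chr17:44924709-44947711 and KIF2C at chr1:44739818-44767767 (hg38).

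KIF23 and KIF14 act late in division. KIF23 is the motor of centralspindlin, the complex that bundles midzone microtubules, and KIF14 is needed for cytokinesis. KIF23 (chr15:69414246-69448427) was at 137, 161 and 165 CPM on day 0 and at 1.54, 3.08 and 6.39 CPM on day 30. KIF14 (chr1:200551497-200620734) was at 88.4, 93.9 and 106 CPM and then at 1.54, 2.18 and 2.63 CPM. The pair fell by the same amount, 5.54 on the log2 scale, with standard errors of 0.31 and 0.18 (adjusted p = 5.51e-08 and 1.78e-09). No values overlapped between the days.

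The 7 other tested mitotic kinesins also fell, with log2 changes of -5.50 to -2.61. KIF11, which slides spindle microtubules apart and is the target of many antimitotic drugs, went from 143, 146 and 153 CPM to 2.97, 3.46 and 5.26 CPM (log2 change -5.31 ± 0.18, adjusted p = 1.82e-09). KIF20A, which works at the midzone, changed by -5.50 ± 0.37, and KIF20B, which acts in cytokinesis, by -4.75 ± 0.17. KIF4A, a chromokinesin that limits the length of midzone microtubules, changed by -4.43 ± 0.16. KIF15, which can assist KIF11, and KIF18A, which damps chromosome oscillations, changed by -4.37 ± 0.19 and -4.15 ± 0.19. KIF22, a chromokinesin that pushes chromosome arms from the poles, fell least. Its values were 116, 118 and 95.9 CPM on day 0 and 18.7, 16.4 and 19.4 CPM on day 30 (log2 change -2.61 ± 0.13, adjusted p = 2.66e-08).

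**Figure D2:**
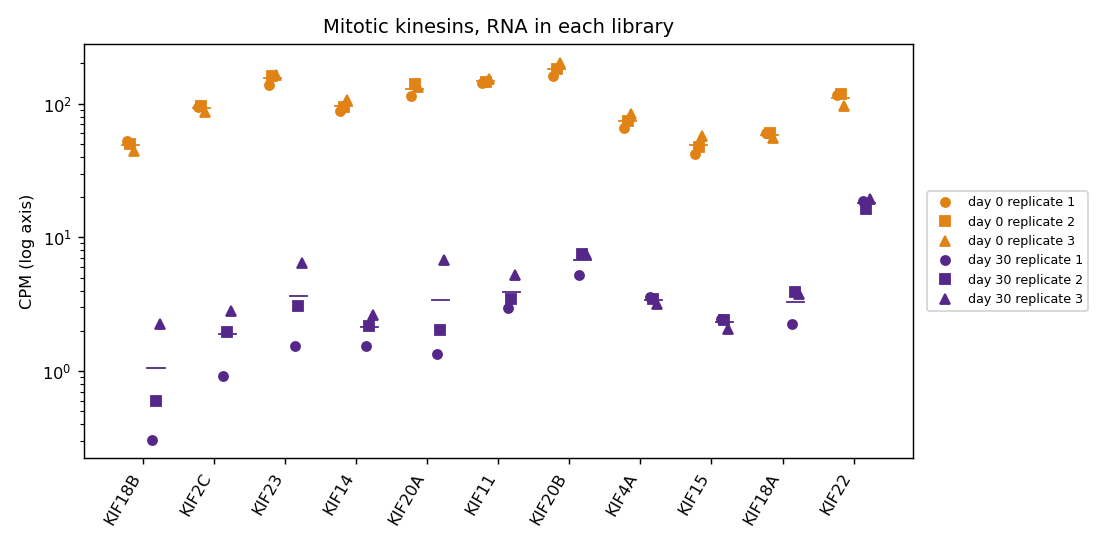
CPM (log axis) of the 11 tested mitotic kinesins in each library. Orange points are the 3 day 0 libraries, purple points the 3 day 30 libraries, with a symbol for each replicate and a short line at the group mean. No gene's days overlap, KIF22 keeps the most RNA on day 30 (16.4 to 19.4 CPM), and day 30 replicate 3 (triangles) is the highest of its day for 7 of the 11 genes.

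What was left of the mitotic kinesins on day 30 was unequal between libraries. Replicate 3 held the highest day 30 level of 7 of the 11 genes, and replicates 1 and 2 of 2 each. The ratio of replicate 3 to replicate 1 was 7.34 for KIF18B, 5.08 for KIF20A and 4.16 for KIF23, but 0.891 for KIF4A and 0.841 for KIF15. These ratios rest on few counts. In day 30 replicates 1, 2 and 3, KIF18B had 3, 8 and 12 counts, KIF20A 13, 27 and 36, and KIF23 15, 41 and 34. As a percentage of the day 0 mean, KIF18B stood at 0.627%, 1.23% and 4.6% in day 30 replicates 1, 2 and 3, whereas KIF22 stood at 17%, 14.9% and 17.6%. Replicate 3 is also the library with the high mesenchymal marker sum. The 8 cycling cell markers, all of which fell, summed to 33.7, 45.63 and 63.88 CPM in the same order against 1772 to 1858 CPM on day 0. These markers were uneven too. Their ratio of replicate 3 to replicate 1 was 5.1 for TOP2A and 2.58 for MKI67, but 1.15 for MCM2, 1.11 for TYMS and 0.874 for PCNA. The part of mesenchymal or cycling cells in the residual kinesin RNA was not tested. Without day 30 replicate 3, KIF18B changed by -6.63 and KIF20A by -6.20, with adjusted p = 1.08e-08 and 4e-09, and the median over the 11 genes was -5.48.

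Of the 13 mitotic kinesins, KIFC1 and KIF4B had too few counts to be tested. KIFC1, a minus-end directed motor that crosslinks spindle microtubules, had 2 counts over the 3 day 0 libraries and 0 on day 30, although the other mitotic kinesins were abundant on day 0. Genes around it were low too: of 33 protein-coding genes within 500 kb, 26 (78.8%) had at most 10 counts in every library, against 25.2% of all protein-coding genes. The way reads of that stretch of chromosome 6 were assigned is not stated by the labels, and its part in the low KIFC1 count was not tested. KIF4B, an intronless near-copy of KIF4A, had 8 counts on day 0 and 22 on day 30, and reads of the pair may have been assigned to either gene.

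Since the mitotic kinesins moved together, their promoters were searched for 2 elements known from genes of late cell cycle. The cell cycle genes homology region (CHR) is read by the DREAM repressor in resting cells and by MYBL2 and FOXM1 complexes in dividing cells, and the CCAAT box is bound by the factor NF-Y. The CHR was searched as TTTGAA or TTTAAA and the CCAAT box as CCAAT, each on both strands, in RefSeq windows from 250 bases before to 50 after the start (build GRCh38.p14). Of the 46 kinesins, 36 had at least 1 window. The 10 without one were KIF5A, KIF13B, KIF19, KIF21B, KIF26B, KIF27, KIFC2, KIFC3, KLC2 and KLC4, none of them mitotic. They include the transport kinesins with the largest rises, KIF5A, KIF21B and KIFC3. A CHR match was found for 12 of 13 mitotic kinesins (92.3%), and for 10 of the 11 that were tested. It was found for 2 of 12 transport kinesins, KIF5B and KIF16B, and for none of 4 ciliary kinesins, 5 other heavy chains and 2 light chains. Of all 27305 genes with a window 27.9% held a match, and of the 11968 whose RNA was tested here 21.9%. KIF22, the mitotic kinesin without a match, was also the one that fell least. Outside the mitotic list, the centriolar kinesin KIF24 had no match and a log2 change of -4.03. Of the 2 transport kinesins with a match, KIF16B fell and KIF5B did not pass. A link between match and change was not tested.

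The matches of the mitotic kinesins stood close to the start. All 12 genes had one that began between 60 bases before and 36 after it, a range chosen after the positions were seen. In that range 9.6% of all genes and none of the 12 transport kinesins with a window had one. Before the start alone, 7 of 13 mitotic kinesins had a match, beside 25.5% of all genes. A CCAAT box was found in 11 of 13 mitotic kinesins (84.6%), 4 of 12 transport kinesins and 39.7% of all genes. Both elements were found in 10 of 13 mitotic kinesins and 11.2% of all genes. A match describes letters in a window and does not show that a factor binds there.

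The stretches of 30 bases around the CHR of the 10 tested genes that had one are shown to let the shared letters be seen, 5′ to 3′ on the strand of the gene, with CHR and CCAAT letters of either strand in capitals.
KIF11: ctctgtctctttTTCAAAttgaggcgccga
KIF14: gcggggcgcccaTTCAAAttgcggccttct
KIF15: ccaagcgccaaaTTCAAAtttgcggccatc
KIF18A: aagtggcttgggTTTGAAtattgtggttga
KIF18B: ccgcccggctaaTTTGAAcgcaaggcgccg
KIF20A: cgcagcgcgtaaTTTAAAatattgtatctg
KIF20B: tggccgccattgTTTGAATTTGAAaacggt
KIF23: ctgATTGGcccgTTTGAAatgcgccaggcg
KIF2C: ttgcgcgcgggaTTTAAActgcggcggttt
KIF4A: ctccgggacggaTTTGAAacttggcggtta
Their positions are chr10:92593090-92593119 (plus strand) for KIF11, chr1:200620733-200620762 (minus) for KIF14, chr3:44761747-44761776 (plus) for KIF15, chr11:28108149-28108178 (minus) for KIF18A and chr17:44947754-44947783 (minus) for KIF18B. KIF20A is shown at chr5:138179059-138179088, KIF20B at chr10:89701602-89701631, KIF23 at chr15:69414282-69414311, KIF2C at chr1:44739822-44739851 and KIF4A at chrX:70290058-70290087, all on the plus strand. KIF20B carried 2 copies of TTTGAA end to end, and KIF23 a CCAAT box, read on the other strand as ATTGG, close before its CHR.

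A stretch of 120 bases that ends just before the start is shown for 3 mitotic kinesins and, as a contrast, for KIF5C, a neuronal transport kinesin that rose and whose stretch held neither element, although its window had a CCAAT box farther from the start.
KIF11: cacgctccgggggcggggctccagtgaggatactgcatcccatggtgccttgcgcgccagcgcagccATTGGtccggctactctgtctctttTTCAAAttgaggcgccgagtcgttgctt
KIF14: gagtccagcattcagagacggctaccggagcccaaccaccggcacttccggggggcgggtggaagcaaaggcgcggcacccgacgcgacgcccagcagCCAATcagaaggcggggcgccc
KIF18B: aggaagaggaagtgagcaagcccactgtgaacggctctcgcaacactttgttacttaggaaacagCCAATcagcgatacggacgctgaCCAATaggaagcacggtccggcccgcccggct
KIF5C: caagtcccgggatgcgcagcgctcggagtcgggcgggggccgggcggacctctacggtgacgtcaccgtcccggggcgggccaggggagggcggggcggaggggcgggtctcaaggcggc
These are chr10:92593010-92593129 (plus strand), chr1:200620752-200620871 (minus), chr17:44947774-44947893 (minus) and chr2:148875107-148875226 (plus). KIF18B had 2 CCAAT boxes before its start, and KIF11 and KIF14 had 1 each. In KIF14 and KIF18B the CHR nearest the start began just past it and is seen only in the shorter stretches.

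Among the transport kinesins, the KIF5 heavy chains of conventional kinesin parted ways. KIF5A (chr12:57549998-57586632), a neuronal heavy chain, was at 36.5, 28.2 and 22.2 CPM on day 0 and at 611, 569 and 555 CPM on day 30. It rose by 4.32 ± 0.18 on the log2 scale (edgeR adjusted p = 6.23e-09), the largest rise of any transport kinesin in this comparison. KIF5C (chr2:148875250-149026759), the other heavy chain known as neuronal, was at 65, 61.6 and 69.8 CPM and then at 545, 477 and 440 CPM, a rise of 2.90 ± 0.13 (adjusted p = 7.89e-09). For both genes the lowest day 30 library was far above the highest day 0 library.

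KIF5B (chr10:32009010-32056431), the heavy chain found in most cell types, was at 233, 262 and 270 CPM on day 0 and at 264, 258 and 214 CPM on day 30. The days overlapped, and the log2 change of -0.05 ± 0.12 did not pass (adjusted p = 0.695). Its sign turned with the scaling, at 0.04 when libraries were scaled by their total counts only, and at 0.06 without day 30 replicate 3.

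The KIF1 motors carry synaptic vesicle precursors and other organelles. KIF1A (chr2:240713761-240821036), an axonal motor, was already at 466, 416 and 428 CPM on day 0 and was at 1405, 1254 and 1351 CPM on day 30 (log2 change 1.61 ± 0.11, adjusted p = 2.48e-07). KIF1B (chr1:10210805-10381603), whose isoforms carry mitochondria or vesicle precursors, was at 253, 250 and 253 CPM and then at 909, 913 and 930 CPM (1.87 ± 0.10, adjusted p = 4.18e-08). KIF1C (chr17:4997948-5028401), a motor of vesicles in many tissues, went the other way. It was at 139, 137 and 134 CPM on day 0 and at 43.4, 55 and 51.3 CPM on day 30 (-1.45 ± 0.12, adjusted p = 8.68e-07). All 3 genes had day 0 and day 30 values that did not overlap.

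KIF3A, KIF3B and KIF3C build kinesin-II, which moves cargo in axons and inside cilia. KIF3A pairs with KIF3B or KIF3C, and KIFAP3 binds the pair. KIF3A (chr5:132692628-132737638) was at 27.2, 25.3 and 30.1 CPM on day 0 and at 255, 227 and 208 CPM on day 30, a log2 rise of 3.06 ± 0.13 (adjusted p = 6.57e-09). KIF3C (chr2:25926596-25982749), the neuronal partner, was at 61.7, 66.1 and 55 CPM and then at 362, 331 and 292 CPM (2.43 ± 0.13, adjusted p = 3.01e-08). KIF3B (chr20:32277664-32335011) was at 46.7, 50.9 and 53.2 CPM and then at 122, 114 and 105 CPM (1.18 ± 0.11, adjusted p = 3.28e-06). The 3 motor genes all rose without overlap. KIFAP3, the accessory subunit of the trimer, rose from 9.52, 11 and 9.31 CPM to 288, 275 and 264 CPM (4.80 ± 0.13, adjusted p = 7.7e-10).

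KIF21A and KIF21B, which slow the growth of microtubule ends, both rose. KIF21B, the more brain-restricted of the pair (chr1:200969390-201023700), was at 40.7, 48 and 35.9 CPM on day 0 and 463, 413 and 415 CPM on day 30 (log2 change 3.37 ± 0.14, adjusted p = 5.47e-09). KIF21A changed by 2.07 ± 0.10, from a mean of 102 ± 4.21 to 431 ± 10.7 CPM (SD, n = 3). The minus-end directed motor KIFC3 (chr16:57758217-57863053) was low on day 0, at 5.84, 7.23 and 6 CPM, and stood at 64.2, 58.2 and 61.2 CPM on day 30 (3.27 ± 0.14, adjusted p = 8.48e-09). KIFC2, a related motor of neurons, changed by 2.70 ± 0.27, and KIF17, a dendritic motor, by 0.97 ± 0.18, from 8.11 ± 1.07 to 15.8 ± 1.81 CPM. KIFC2 shares 791 exon bases with FOXH1 on the opposite strand, and the labels do not say whether strand was used in counting.

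KIF16B, KIF13A and KIF13B did not take part in the rise. KIF16B (chr20:16272104-16573434), which moves early endosomes, was at 21.8, 25.6 and 31.1 CPM on day 0 and at 8.09, 11.7 and 13.3 CPM on day 30 (log2 change -1.26 ± 0.21, adjusted p = 0.000212). KIF13A (chr6:17759183-17987623), which moves recycling endosomes, was at 95.2, 98.4 and 101 CPM and then at 64.8, 74.1 and 72.7 CPM, a small fall without overlap (-0.48 ± 0.11, adjusted p = 0.00162). KIF13B, its paralog, was at 33.5, 33 and 29.8 CPM and then at 33.9, 38.6 and 33.1 CPM. The days of KIF13B overlapped, and its change of 0.14 ± 0.12 did not pass (adjusted p = 0.329). KIF1C, KIF16B and KIF13A were the transport kinesins that fell, and all belong to kinesin family 3.

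The light chains, which link KIF5 to cargo, rose by similar amounts. KLC1 (chr14:103561896-103714249), the light chain most abundant in neurons, was at 89.3, 85 and 79.4 CPM on day 0 and 241, 234 and 231 CPM on day 30 (log2 change 1.48 ± 0.10, adjusted p = 2.76e-07). KLC2 (chr11:66257294-66267860) was at 23.9, 19.7 and 16.7 CPM and then at 56.3, 46.7 and 54.9 CPM (1.39 ± 0.16, adjusted p = 1.2e-05). KLC4 (chr6:43040777-43075099) was at 14.8, 20 and 16.4 CPM and then at 42.6, 42.3 and 44.3 CPM (1.34 ± 0.14, adjusted p = 7.24e-06). None of the 3 overlapped between days, and the ranges of 1 standard error around their changes overlapped. KLC3, known mainly from testis, stayed near the limit of counting at 1.52, 0.434 and 1.35 CPM and then 0.819, 1.05 and 0.376 CPM, and was not tested. A read-through gene that shares KLC1 exons went from a mean of 48.1 to 172 CPM. With its reads added KLC1 stood at 133 and 408 CPM, a log2 ratio of 1.62. KLC1 also shares 5756 exon bases (29.9% of its own) with XRCC3 on the opposite strand, and whether strand was used in counting is not stated. XRCC3 had 184 to 291 counts per library on day 0 and 11 to 22 on day 30.

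**Figure D3:**
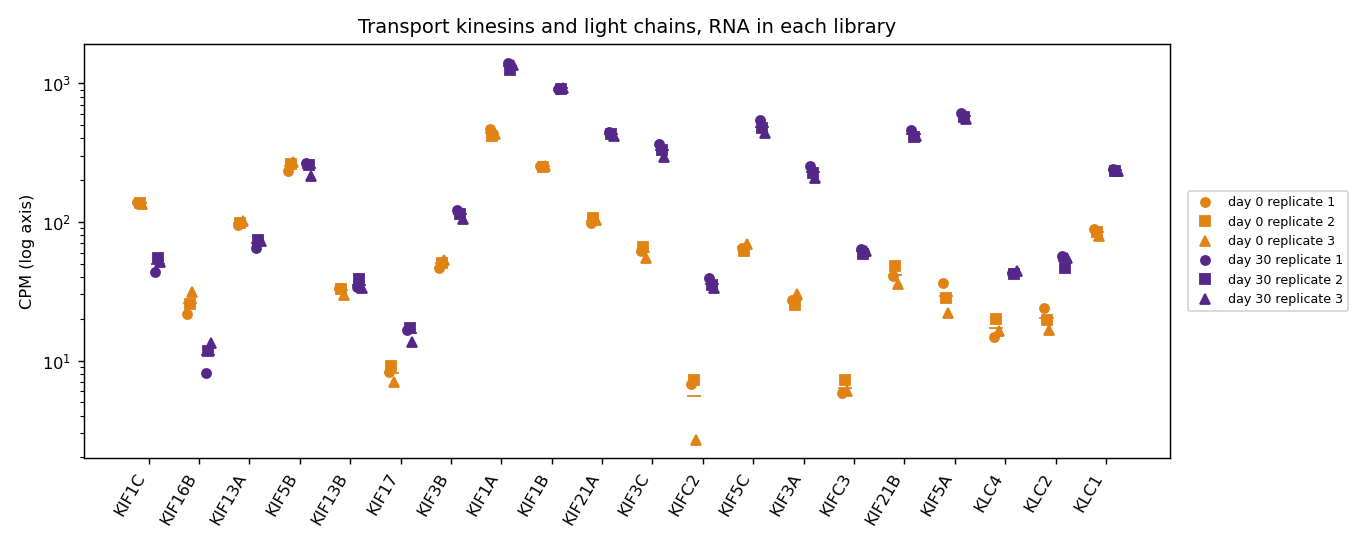
CPM (log axis) of the 17 transport kinesins and the 3 tested light chains in each library, ordered by log2 change within each role. Orange points are day 0, purple points day 30, with a symbol for each replicate and a short line at the group mean. KIF1C, KIF16B and KIF13A are lower on day 30, KIF5B and KIF13B overlap between days, and the other 15 genes are higher.

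These changes altered the make-up of paralog groups. Levels of different genes were compared per kilobase of exon, and shares are means with the SD of 3 libraries, with no test. KIF5B made up 78.6% ± 2.8 of KIF5 RNA on day 0 and 22.3% ± 1.2 on day 30, while KIF5A went from 8.47% ± 2.5 to 49.5% ± 1.6 and KIF5C from 12.9% ± 0.79 to 28.2% ± 0.96. The share of KIF5B thus shrank although its own level did not pass the test, since the RNA of its paralogs rose around it. KIF1C went from 28.3% ± 0.64 to 4.24% ± 0.61 of KIF1 RNA, a change of -24 percentage points that was -14.4 with no correction for length. KIF3B went from 37.8% ± 2.1 to 18% ± 0.42 of KIF3 RNA and KIF3A from 18.5% ± 1.9 to 32.4% ± 0.36, and KIF21B went from 25.2% ± 2.5 to 45.4% ± 1.1 of KIF21 RNA. Within the KIF2 depolymerases, KIF2C held 44.5% ± 3.7 on day 0 and 1.18% ± 0.68 on day 30, with KIF2A holding the rest. No overlap was seen between days in any of these shares. By contrast, KLC2 held 33.1% ± 3.6 and 33.4% ± 2.1 of light chain RNA and KLC4 24.2% ± 4.1 and 23.4% ± 0.85, with overlapping values.

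**Figure D4:**
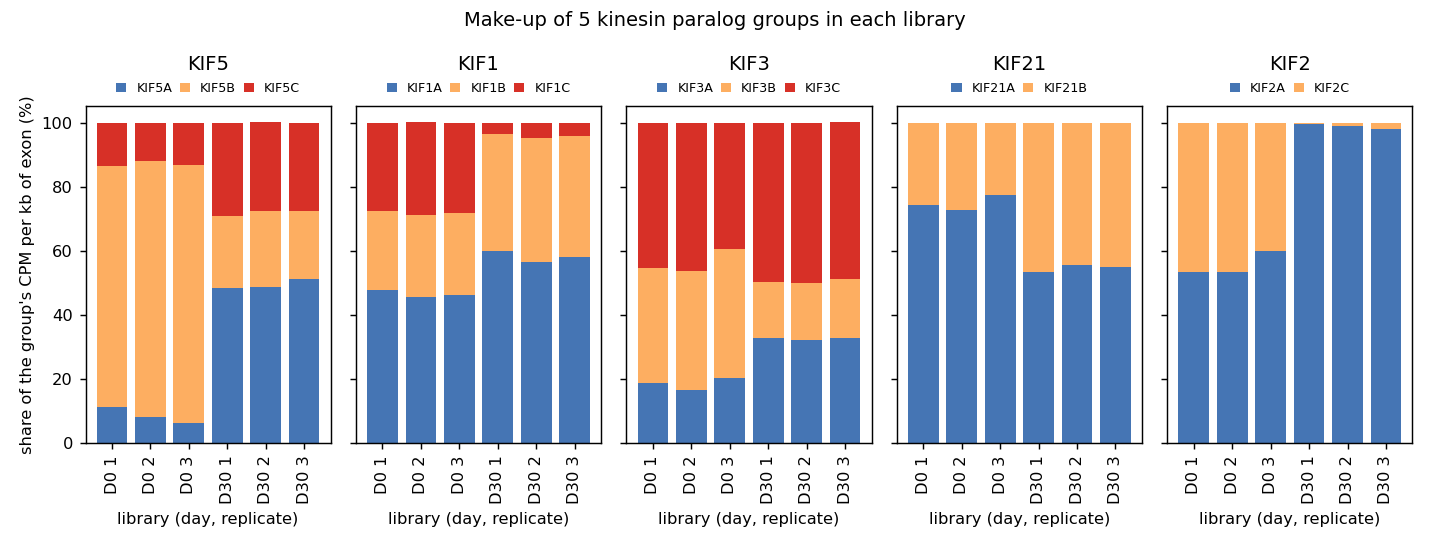
Share (%) of each gene in the RNA of its paralog group, from CPM per kilobase of exon, in the day 0 (D0) and day 30 (D30) libraries. Each bar is a library. KIF5B, KIF1C, KIF3B, KIF21A and KIF2C make up a smaller share in each day 30 library than in any day 0 library.

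Over all kinesins, mitotic members held 50.1% ± 1 of the RNA per kilobase on day 0 and 1.67% ± 0.42 on day 30, and transport members 36.8% ± 0.5 and 84.1% ± 0.37. The fall of the one group was smaller in CPM than the rise of the other. Mitotic kinesins summed to 1142 ± 57.6 CPM and then 50.7 ± 10.6 CPM (SD, n = 3), and transport kinesins to 1633 ± 3.58 and then 5378 ± 237 CPM. All kinesins together took 0.295% to 0.314% of counts on day 0 and 0.614% to 0.642% on day 30. Per kilobase, KIF5B was the most abundant kinesin on day 0 at 43.4 ± 3.35 CPM per kilobase, followed by KIF20A at 32.7 ± 3.26, KIF2A at 31.7 ± 3.12 and KIF11 at 30.4 ± 1.07. The last 3 of these did not differ beyond their spread. On day 30 KIF5A led at 92.3 ± 4.62, then KIF1A at 80.1 ± 4.59. KIF5C at 52.9 ± 5.78, KIF1B at 51.8 ± 0.634 and KIF3C at 51.2 ± 5.48 came next and did not differ beyond their spread.

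The ciliary and centriolar kinesins had no common direction. KIF24 (chr9:34252381-34311371), a centriolar motor that holds back the growth of cilia in dividing cells, fell from 10.3, 14.6 and 15.6 CPM to 0.615, 0.902 and 0.939 CPM (log2 change -4.03 ± 0.30, adjusted p = 4.91e-07), a change close to that of KIF18A. KIF27 (chr9:83836698-83921465), a relative of KIF7, rose from 13.3, 16.3 and 14.6 CPM to 24.9, 26 and 24.6 CPM (0.77 ± 0.14, adjusted p = 0.000414). KIF6 (chr6:39329990-39725405), a motor tied to motile cilia, was low throughout, at 1.02, 1.16 and 1.1 CPM and then at 2.56, 4.06 and 3.01 CPM (1.57 ± 0.34, adjusted p = 0.00143). Neither KIF24, KIF27 nor KIF6 overlapped between days.

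KIF7 and KIF9 did not pass. KIF7, which works at the tip of the primary cilium in Hedgehog signalling, was at 23.9, 16.5 and 16.5 CPM on day 0 and at 15.9, 12.6 and 17.8 CPM on day 30 (log2 change -0.32 ± 0.20, adjusted p = 0.166). The day 30 cells had been treated with SHH and purmorphamine early in the protocol. KIF9, of motile cilia, was at 3.81, 2.6 and 4.65 CPM and then at 3.99, 3.23 and 3.38 CPM (-0.07 ± 0.29, adjusted p = 0.838). The days overlapped in both genes, and each gene shares exon bases with a gene on the opposite strand, KIF7 with TICRR (589 bases) and KIF9 with KIF9-AS1 (870 bases). KIF19, which sets the length of motile cilia, had 2 counts on day 0 and 9 on day 30 and was not tested.

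The remaining heavy chains held 1 marked rise. KIF26B (chr1:245154985-245709431), an atypical kinesin of development, had 3 counts over the 3 day 0 libraries and 331 on day 30, at 0.127, 0.289 and 0 CPM and then 11.4, 11.2 and 13.3 CPM. The ratio of day 30 to day 0, scaled by library size, was 89.2 with a 95% counting interval of 30.3 to 435, which covers counting error only (edgeR adjusted p = 3.29e-07). The fitted log2 change of 6.35 ± 0.45 depends on those few counts, and was 7.26 without day 0 replicate 2 and 5.76 without day 0 replicate 3. KIF26A, its paralog, was at 56.9, 37.9 and 31.6 CPM and then at 47.1, 40.3 and 39.3 CPM (0.01 ± 0.20, adjusted p = 0.98). The day 30 values of KIF26A all lay inside the day 0 range, and the sign of its change turned under several alternatives.

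KIF2A (chr5:62306162-62537249), a depolymerase that prunes axon branches, was at 141, 144 and 168 CPM on day 0 and at 234, 222 and 194 CPM on day 30. Its rise of 0.52 ± 0.12 on the log2 scale (adjusted p = 0.00222) was without overlap, in contrast to KIF2C of the same family. It shares 428 exon bases with IPO11 on the same strand. KIF12, known from kidney and liver, had 32 counts on day 0 and 5 on day 30 and was not tested in the main analysis. KIF25 had 5 and 2 counts. KIF2B, a near relative of KIF2A, had none in any library.

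Members of 1 sequence family could move in opposite directions. Kinesin family 3 held 7 tested genes, of which 4 fell and 2 rose, with KIF14 at one end and KIF1B at the other. Family 4 held 5, of which KIF4A fell and 3 rose, and family 13 held 3, of which KIF2C and KIF24 fell and KIF2A rose. In families 1 and 2 none fell, and all 3 tested members of family 6 fell.

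Partners of the motors were read from lists of genes known to bind or regulate them. Among 28 spindle partners of mitotic kinesins 26 fell and 1 rose, with a median log2 change of -4.40. Of all genes tested, 36.8% fell and 39.8% rose. The largest falls were those of DLGAP5, a spindle protein, from 201, 215 and 217 CPM to 1.02, 1.8 and 2.44 CPM (-6.97 ± 0.20, edgeR adjusted p = 1.16e-09), and of CDK1, the kinase that drives mitosis, by 6.65 ± 0.21. TPX2, which targets KIF11 and KIF15 to the spindle, changed by -4.98 ± 0.20, and PRC1, the midzone crosslinker that recruits KIF4A and KIF14, by -3.50 ± 0.17. CENPE, itself a kinesin of the kinetochore, went from 176, 199 and 191 CPM to 16.3, 12.3 and 16.5 CPM (-3.67 ± 0.14, adjusted p = 4.33e-09). NUMA1, which anchors dynein at the spindle poles and is also a nuclear protein of resting cells, was the partner that rose, by 1.02 ± 0.13. STARD9, named after its values were seen, was the partner that did not pass (0.12 ± 0.16, adjusted p = 0.522), with overlapping days.

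The list of factors of mitotic entry transcription, which includes those that read the CHR, was mixed. In it 12 of 17 fell and 3 rose (median -1.30), beside 36.8% and 39.8% of all genes tested. FOXM1 went from 114, 104 and 127 CPM to 0.819, 1.28 and 1.69 CPM (-6.56 ± 0.20, adjusted p = 1.31e-09) and MYBL2 from 133, 126 and 144 CPM to 2.05, 1.2 and 2.63 CPM (-6.21 ± 0.21, adjusted p = 1.82e-09). These are the activators. Subunits of the core that these activators share with the repressor went both ways: LIN37 and LIN52 rose by 2.04 ± 0.27 and 0.49 ± 0.15, LIN9 fell by 2.66 and RBBP4 by 0.54, and LIN54 changed by 0.15 and did not pass. Of the RBL, TFDP and E2F genes of the list, RBL2 rose by 0.40 and TFDP2 did not pass. The others fell, among them RBL1, E2F4, TFDP1 and E2F5 by 1.74, 1.30, 1.28 and 1.12. LIN9, RBBP4, LIN54 and the RBL, TFDP and E2F genes were named after their values were seen. The rise of LIN52 (adjusted p = 0.0121) did not pass without day 0 replicate 2 (0.066) or without day 30 replicate 2 (0.0627).

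Of 33 adaptors and regulators of transport kinesins, 23 rose and 4 fell (median 1.63), beside 39.8% and 36.8% of all genes tested. SYBU, an axonal adaptor of KIF5, was almost absent on day 0 at 0, 0.289 and 0.367 CPM and stood at 44.9, 40.9 and 41.7 CPM on day 30. Its fitted log2 change of 7.51 ± 0.32 rests on few day 0 counts, and was 6.91 without day 0 replicate 1 and 8.13 without day 0 replicate 3 (adjusted p = 3.28e-08 and 8.87e-08). CLSTN2, a calsyntenin of the family that binds light chains, went from 1.65, 2.02 and 3.92 CPM to 333, 392 and 503 CPM (7.31 ± 0.28, adjusted p = 3.77e-09). MAP7, which recruits KIF5 to microtubules, fell by 1.66 ± 0.13, and PPFIA1, a liprin, by 0.87 ± 0.12.

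The mitochondrial adaptors of KIF5 differed in their own tests: TRAK1 rose by 1.22 ± 0.12 (adjusted p = 5.23e-06), while TRAK2 changed by 0.24 ± 0.14 and did not pass (adjusted p = 0.136). TRAK2 passed when libraries were scaled by total counts only (0.34, adjusted p = 0.0357), and the difference between the 2 adaptors was not tested. KIFBP, which blocks several kinesins from microtubules, was at 36, 41.5 and 46.3 CPM and then 48.8, 54.6 and 54.1 CPM. Its log2 change of 0.35 ± 0.13 passed (adjusted p = 0.0291), but adjusted p was 0.143 or 0.0951 when replicate 1 or 2 of day 0 was left out, and 0.0934 when replicate 2 of day 30 was.

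Dynein is the motor that carries cargo back toward the cell body. Of 27 tested dynein, dynactin and dynein adaptor genes 22 rose and 3 fell, beside 39.8% and 36.8% of all genes tested. Their median of 0.73 lay inside the quartiles of all genes tested, -0.99 to 1.33. DYNC1H1, the dynein heavy chain, went from 879, 932 and 970 CPM to 1936, 1920 and 2014 CPM (1.08 ± 0.11, adjusted p = 4.43e-06). DYNC1I1, the neuronal intermediate chain, went from 2.28, 2.02 and 1.59 CPM to 36.7, 38.6 and 38.9 CPM (4.27 ± 0.18, adjusted p = 6.46e-09), and DCTN3, a dynactin subunit, rose by 2.29 ± 0.14. The dynein adaptors HOOK1 and HOOK2 fell, by 1.52 ± 0.13 and 0.91 ± 0.18. DYNLL1 of the same list, named after its values were seen, also fell, with a log2 change of -0.76 ± 0.13 (edgeR adjusted p = 0.000345).

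**Figure D5:**
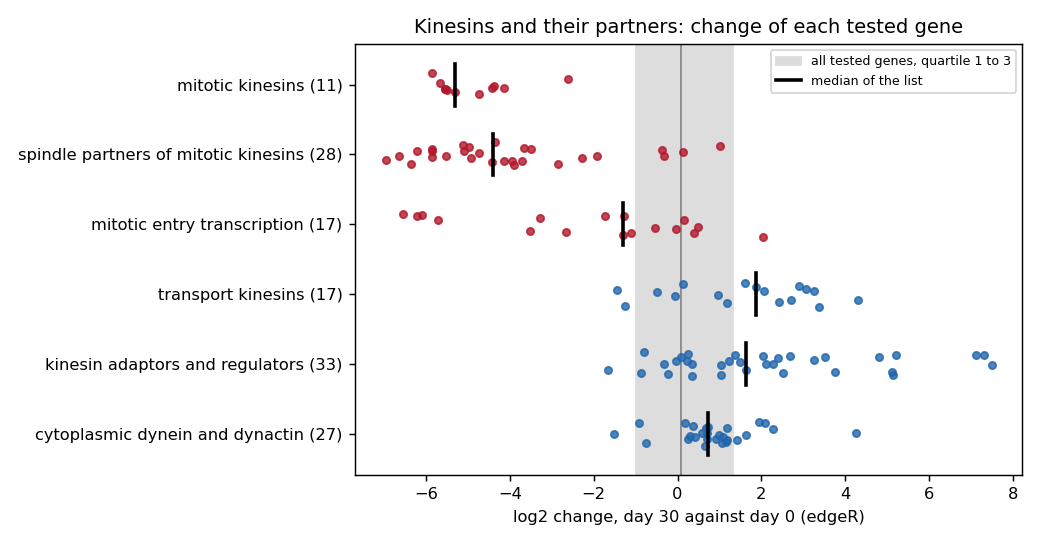
Log2 change on day 30 against day 0 of each tested gene of 6 lists, with the number of genes in brackets and a black line at the median. The grey band spans the first to the third quartile of all 18040 genes tested (-0.99 to 1.33). Medians are -5.31 and -4.40 for mitotic kinesins and their spindle partners, and 1.87, 1.63 and 0.73 for transport kinesins, their adaptors, and dynein with dynactin.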

How the data were processed

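Total RNA of 3 day 0 and 3 day 30 libraries was depleted of ribosomal RNA and sequenced after a stranded TruSeq preparation, per the labels' protocols. Per the submitters' processing notes, FastQC 0.11.9 and the build hg38 were used. The aligner, the counting program, its strand setting and the annotation are not given in those notes or labels. The deposited table holds expected counts per gene, since 92.6% of its values are whole and the rest are fractions. They were rounded to whole numbers before testing, where raw counts had been assumed in planning. Symbols came from a table of Ensembl identifiers, and positions and exon lengths from GENCODE release 29, which holds 94.3% of the entries.

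Counts were tested in R 4.3.3 with edgeR 4.0.16 (quasi-likelihood, TMM, filterByExpr, day as the only term), 2-sided, with Benjamini-Hochberg adjustment over 18040 genes. CPM use TMM-scaled library sizes. The standard error is approximate, as the log2 change divided by the square root of F. The procedure was also run on simulated data in which only a small part of the genes changed. In the real data 76.6% of genes passed, so that run cannot show how the procedure behaves under so broad a change. Alternatives were other scalings, filters, DESeq2 1.42.0, a replicate block and leaving out each library. Reads of the KLC1 read-through gene were added after seeing the data.

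Values of every library are given for the KIF5, KIF1, KIF3 and KLC genes, for up to 3 largest falls and rises of each role list, and for members that did not pass or moved against their list. In partner lists the 2 largest falls and rises with a mean log2 CPM of at least 2 are named, with 10 genes fixed by name; KIF11 and KIF22 were added after their values were seen. The members and lists were chosen with earlier results of these data known. Sequences are from RefSeq, GRCh38.p14.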

Additional observations from a re-analysis of the deposited data

How the results depend on the processing

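The counts of 15 kinesins that fell and 19 that rose were 15 or 16 and 19 under all alternatives run. With no filter on low counts, without day 0 replicate 3 or without any one day 30 replicate, KIF12 entered the test and passed as lower, so that the other heavy chains that fell numbered 1 in place of 0 (0 to 1 over the fits that left out a library). Of the 39 tested kinesins 36 kept their direction and their side of the threshold under every alternative. The other 3 did not pass in any: KIF26A was at -0.01 with DESeq2's size factors and with DESeq2, -0.0024 with no filter, and ran from -0.18 to 0.25 when 1 library was left out, with -0.09 and -0.18 for the loss of replicate 2 or 3 of day 0 and -0.10 for that of replicate 1 of day 30. KIF9, and with it the median of the ciliary kinesins, was at 0.02 with total counts only and ran from -0.28 to 0.12 when 1 library was left out. KIF5B was at 0.04 with total counts only and ran from -0.15 to 0.06. The cause was not tested.

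With no length correction, or with the longest transcript as length, the share of KIF1C changed by -14.4 or -16.9 percentage points (-24 with exon length), that of mitotic kinesins by -35.5 or -47.2 (-48.5), and that of transport kinesins by 36.5 or 46.3 (47.4). The share of KIF2C changed by -37.1 with no length correction (-43.3). The labels do not state that replicate numbers pair the samples. Deviations of same-numbered libraries correlated at 0.075, -0.004 and -0.052, and those of differently numbered libraries at -0.134 to 0.137. Correlations from 3 libraries a day cannot decide whether the samples were paired. With a replicate block, 15 kinesins fell and 19 rose, as without it. KIFC1, KIF4B, KIF12, KIF19, KIF25 and KLC3 had at most 32 counts on a day, too few to test, and the cause of the low counts was not tested.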
